A study of Mus musculus with 18 samples.

Results

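The VEGF family comprises secreted ligands and the cell surface receptors that bind them. Its 10 genes examined here were the ligands Vegfa, Vegfb, Vegfc, Vegfd (named Figf by the array's annotation) and Pgf, the receptor kinases Flt1, Kdr and Flt4, and the co-receptors Nrp1 and Nrp2. All probe sets carrying one of these symbols or a current synonym were taken, 28 of the 45037 probe sets of the table. Of these, 25 carry the gene's own Entrez identifier and were used, and all 10 genes and all 25 probe sets passed the filter on low values. The other 3 match only by a synonym while their Entrez identifier belongs to another entry. The one labelled Nrp had intensities of 205 to 274 in NRAS-off, 151 to 212 in MEK inhibitor and 188 to 244 in vehicle tumours, and both labelled Npn2 lay between 13.9 and 47.7 in all 18 tumours. Of the genes, Vegfb, Pgf and Kdr had 1 probe set, Vegfa and Flt4 had 2, Vegfc and Vegfd had 3, and Flt1, Nrp1 and Nrp2 had 4.

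RNA came from 18 allografts of iNRAS-475, a mouse melanoma cell line whose NRAS oncogene depends on doxycycline, injected into the skin of nude mice given doxycycline at 2 mg/ml in their water. Tumours measured 200 to 500 mm3 at 6 weeks, and the groups were 6 NRAS-off tumours, in which doxycycline was withdrawn for 4 days, 6 MEK inhibitor tumours, given 100 mg/kg AZD6244 (selumetinib) over 4 days, and 6 vehicle tumours. The labels give doxycycline withdrawal for the NRAS-off mice alone, so in that group the absence of the drug and the loss of NRAS cannot be told apart. All tumours descend from 1 cell line, and nude mice lack mature T cells but supply the vessels, macrophages and fibroblasts of the graft, whose transcripts the mouse probe sets cannot tell apart from those of the melanoma cells. The mouse Nras probe sets fell by 0.19, 0.43 and 0.28 on the log2 scale in NRAS-off and by 0.27, 0.31 and 0.23 in MEK inhibitor against vehicle tumours (3 sets), and the labels do not say whether they read the inducible transgene.

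VEGF ligands are dimers that bind receptor tyrosine kinases found mainly on endothelial cells. Vegfa drives blood vessel growth chiefly through Kdr (VEGF receptor 2), while Flt1 (VEGF receptor 1) binds Vegfa tightly, signals weakly, is also made as a secreted form that traps ligand, and is the receptor of Vegfb and Pgf. Vegfc and Vegfd act through Flt4 (VEGF receptor 3), best known from lymphatic vessels. Nrp1 and Nrp2 have no kinase, present VEGF to the receptors and also bind class 3 semaphorins. Vegfa transcription is a textbook target of the hypoxia-inducible factors.

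The promoters of the 4 genes with the largest changes against vehicle in NRAS-off tumours are printed for reference: Flt1 and Vegfa, which fell, and Kdr and Vegfd, which rose. Each window runs from 250 bases before to 50 bases after an annotated start in RefSeq (build GRCm38.p6), 5′ to 3′ on the gene's own strand, with motif matches on either strand in capitals. The lines give Flt1 at chr5:147725962-147726261 (minus strand), Kdr at chr5:75978406-75978705 (minus), Vegfa at chr17:46032328-46032627 (minus, the more upstream of its 2 windows) and Vegfd at chrX:164373272-164373571 (plus).
Flt1: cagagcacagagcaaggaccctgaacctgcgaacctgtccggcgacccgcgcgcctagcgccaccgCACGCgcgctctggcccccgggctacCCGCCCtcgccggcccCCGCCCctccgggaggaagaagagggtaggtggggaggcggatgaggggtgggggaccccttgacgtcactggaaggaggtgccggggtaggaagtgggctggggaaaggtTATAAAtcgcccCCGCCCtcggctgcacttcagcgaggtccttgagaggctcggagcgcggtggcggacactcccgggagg
Kdr: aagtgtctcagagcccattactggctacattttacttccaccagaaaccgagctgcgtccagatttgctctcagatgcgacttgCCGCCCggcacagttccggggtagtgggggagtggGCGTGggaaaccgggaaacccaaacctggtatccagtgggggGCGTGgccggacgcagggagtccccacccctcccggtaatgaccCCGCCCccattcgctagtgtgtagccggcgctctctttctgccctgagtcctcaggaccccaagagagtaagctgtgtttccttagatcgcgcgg
Vegfa: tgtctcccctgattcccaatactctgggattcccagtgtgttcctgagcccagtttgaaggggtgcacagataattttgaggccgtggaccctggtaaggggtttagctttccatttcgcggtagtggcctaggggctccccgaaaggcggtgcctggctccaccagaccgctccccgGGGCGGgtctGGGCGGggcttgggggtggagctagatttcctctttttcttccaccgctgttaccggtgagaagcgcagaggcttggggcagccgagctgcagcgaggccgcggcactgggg
Vegfd: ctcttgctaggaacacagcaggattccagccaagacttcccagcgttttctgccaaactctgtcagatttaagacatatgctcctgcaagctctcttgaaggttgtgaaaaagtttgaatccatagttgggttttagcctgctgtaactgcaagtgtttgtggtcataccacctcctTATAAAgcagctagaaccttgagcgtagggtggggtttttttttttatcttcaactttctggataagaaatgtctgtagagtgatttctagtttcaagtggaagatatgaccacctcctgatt
The motifs searched were the hypoxia response core (ACGTG or GCGTG), AP-1 (TGANTCA), an ETS site (CCGGAAGT), SP1 (GGGCGG) and a TATA box (TATAAA). The Flt1 window holds a TATA box 31 bases before the start, SP1 matches at 158, 142 and 19 bases and 1 hypoxia response core at 184 bases. The Kdr window holds hypoxia response cores at 131 and 89 bases and SP1 matches at 166 and 45 bases, with no TATA box. The Vegfa window holds SP1 matches at 72 and 62 bases, and the Vegfd window a TATA box at 73 bases alone. The other Vegfa window, at chr17:46025114-46025413 and not printed, lies inside the gene's span (chr17:46016993-46032377), downstream of the printed start. It holds hypoxia response cores at 218 and 211 bases and an SP1 match at 158 bases. Its letters are therefore also transcribed from the upstream start, and these matches are not taken as promoter elements. The printed Vegfa window holds no hypoxia response core. Of the 12 windows of the family, 7 hold a hypoxia response core (58.3%, against 43.8% of all 32851 promoter windows of the table), 10 an SP1 match (83.3% against 35.7%), 2 a TATA box (16.7% against 13.6%), none AP-1 (7.81% of all) and none the ETS letters (3.89% of all). The 7 and the 10 include the Vegfa window inside the gene. By gene, 9 of 10 hold an SP1 match. The SP1 letters are all G and C, which made up 42.0% to 75.3% of the family's windows. The shares were not adjusted for this. No printed match overlaps another. A match describes letters and shows neither binding nor a cause.

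Values below are array intensities on a linear scale, and changes are log2 differences ± SE of log2(intensity + 16) between groups of 6 tumours. A gene is said to have risen or fallen where limma's adjusted p, taken over all 15005 genes tested, was under 0.05. Intensities of different probe sets are not comparable as levels of transcript, so the intensity of each gene is compared only with itself. The summed intensities of marker lists are an exception. They weigh the brightest probe sets most and are compared only between groups. The gene level values use the probe set with the highest mean. Array medians lay between 72.3 and 78.5, and tumours of the same group correlated at 0.9871 to 0.997.

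In NRAS-off against vehicle tumours 5 of the 10 genes rose (Vegfb, Vegfd, Kdr, Flt4, Nrp1), 3 fell (Vegfa, Pgf, Flt1) and 2 did not pass. Over all genes 59.3% were called in this comparison, 31.8% higher and 27.5% lower, and the median change of the family was 0.31 against 0.00 for all genes. In MEK inhibitor against vehicle tumours 2 rose (Vegfb, Nrp1), 3 fell (Pgf, Flt1, Flt4) and 5 did not pass, where 45.2% of all genes were called (24.3% higher, 20.9% lower), with a median of −0.05 against 0.01. In NRAS-off against MEK inhibitor tumours 2 were higher (Kdr, Flt4), 3 lower (Vegfa, Pgf, Flt1) and 5 did not pass, where 47.0% of all genes were called (24.3% higher, 22.7% lower), with a median of 0.16 against −0.01. The groups did not overlap for 8, 4 and 4 of the genes in these comparisons, against 39.2%, 25.5% and 28.3% of all genes. Each pair of comparisons shares 1 group of tumours, so their counts are not independent.

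**Figure D1:**
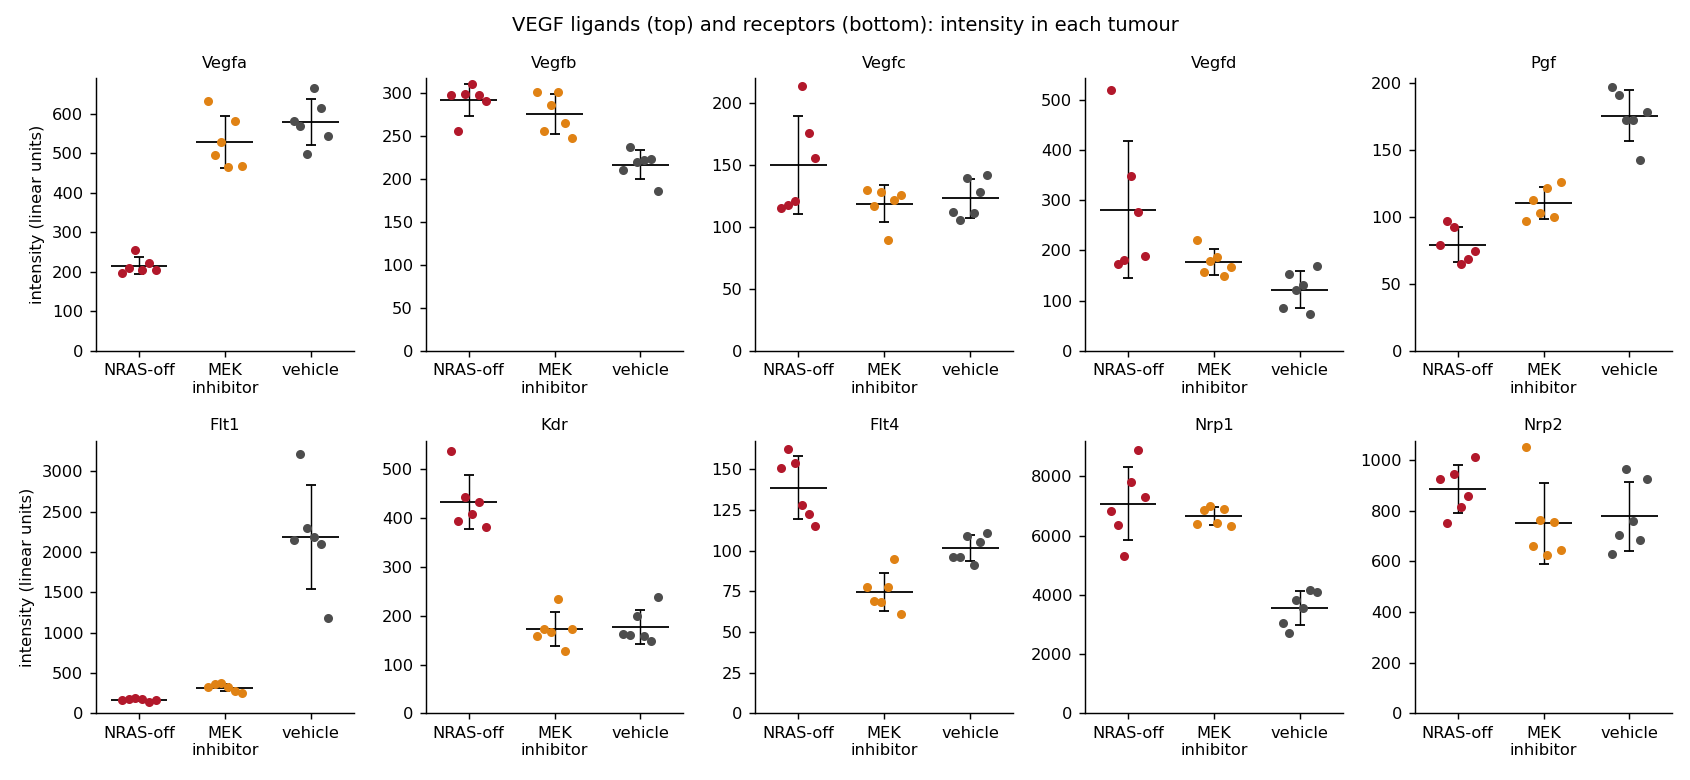
Array intensity (linear axis from 0) of the 5 ligands (top) and the 5 receptors and co-receptors (bottom) in NRAS-off, MEK inhibitor and vehicle tumours; each point is 1 tumour, with the mean and SD of 6 tumours as lines. Flt1 lies at 136 to 194 in NRAS-off tumours against 1182 to 3218 in vehicle tumours, while Kdr is highest in the NRAS-off tumours at 382 to 537.

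Among the ligands, Vegfa and Pgf fell, Vegfb and Vegfd rose and Vegfc did not pass in NRAS-off against vehicle tumours. Vegfa (chr17:46016993-46032377) had intensities of 198 to 254 in NRAS-off tumours (median 207), 465 to 631 in MEK inhibitor tumours (median 511) and 498 to 665 in vehicle tumours (median 575). The NRAS-off tumours lay below every tumour of the other groups, which overlapped with each other. The difference between NRAS-off and MEK inhibitor tumours, −1.23 ± 0.08 (limma adjusted p = 1.02e-09), was close in size to the −1.36 ± 0.08 between NRAS-off and vehicle tumours. For MEK inhibitor against vehicle tumours the change was −0.13 ± 0.08 (95% confidence interval −0.30 to 0.04, limma adjusted p = 0.214). The other Vegfa probe set, 1451959_a_at, fell by 1.10 ± 0.13 in NRAS-off tumours and by 0.45 ± 0.13 in MEK inhibitor tumours (limma adjusted p = 0.00708 over probe sets), so the call in MEK inhibitor tumours depends on the probe set. With the mean of both sets the change in MEK inhibitor tumours was −0.29 (adjusted p = 0.00736).

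Pgf (chr12:85166637-85177785), the placental growth factor that binds Flt1, had intensities of 64.4 to 97.2 in NRAS-off tumours (median 76.4), 97.1 to 126 in MEK inhibitor tumours (median 108) and 143 to 197 in vehicle tumours (median 175). Every treated tumour lay below every vehicle tumour, and the treated groups met at their edges. Pgf fell by 1.01 ± 0.09 in NRAS-off tumours (limma adjusted p = 1.5e-08) and by 0.60 ± 0.09 in MEK inhibitor tumours (adjusted p = 2.23e-05), and NRAS-off tumours were lower than MEK inhibitor tumours (−0.41 ± 0.09, adjusted p = 0.000871). Vegfb (chr19:6982472-6987651), which Flt1 binds as it does Vegfa and Pgf, moved the opposite way to Pgf. Its intensity was 256 to 311 in NRAS-off tumours (median 297) and 247 to 301 in MEK inhibitor tumours (median 275). Vehicle tumours had 186 to 237 (median 221). All 12 treated tumours lay above all vehicle tumours. The change was 0.41 ± 0.06 in NRAS-off tumours (limma adjusted p = 1.74e-05) and 0.33 ± 0.06 in MEK inhibitor tumours (adjusted p = 0.000313), folds of 1.33 and 1.25. Between the treated groups Vegfb differed by 0.08 (95% confidence interval −0.05 to 0.21).

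Of the ligands of Flt4, Vegfd (chrX:164373522-164402650) had 173 to 521 in NRAS-off tumours (median 233), 149 to 221 in MEK inhibitor tumours (median 172) and 72.9 to 169 in vehicle tumours (median 126). Every NRAS-off tumour lay above every vehicle tumour, whereas MEK inhibitor tumours overlapped with both. Vegfd rose by 1.05 ± 0.23 in NRAS-off tumours (limma adjusted p = 0.000621). Relative to its mean it had the widest spread of the 10 genes in NRAS-off tumours: replicate 1 was highest on all 3 of its probe sets, at 521, 416 and 478, and replicate 4 was next at 349, 272 and 293. In MEK inhibitor against vehicle tumours the change was 0.52 ± 0.23 (adjusted p = 0.0746), while the other probe sets, 1438953_at and 1438954_x_at, rose by 1.15 ± 0.27 and 0.95 ± 0.29 (adjusted p = 0.0018 and 0.0114 over probe sets). Without vehicle replicate 6 the change of the first set was 0.61 and passed (adjusted p = 0.0429), and without NRAS-off replicate 1 it was 0.52 and passed (adjusted p = 0.0298). It also passed with only these 2 groups fitted (0.52, limma adjusted p = 0.0181), as did the mean of all 3 sets (0.87, adjusted p = 0.0105). The Vegfd call in MEK inhibitor tumours therefore depends on the probe set and on the tumours fitted.

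Vegfc (chr8:54077532-54186454) had 115 to 213 in NRAS-off tumours (median 138), 89.3 to 129 in MEK inhibitor tumours (median 124) and 105 to 142 in vehicle tumours (median 119.9). The groups overlapped, and NRAS-off replicates 4, 5 and 6 (213, 175 and 155.5) held the high end. The change was 0.23 ± 0.13 in NRAS-off against vehicle tumours (limma adjusted p = 0.128) and −0.05 ± 0.13 in MEK inhibitor against vehicle tumours (adjusted p = 0.798). The remaining Vegfc sets, 1419417_at and 1440739_at, fell in MEK inhibitor tumours by 0.30 ± 0.08 and 0.31 ± 0.10 (adjusted p = 0.00408 and 0.015 over probe sets), and had changes of −0.05 and −0.10 in NRAS-off tumours that did not pass. NRAS-off against MEK inhibitor tumours differed by 0.28 ± 0.13 (adjusted p = 0.0807), which passed without NRAS-off replicate 1 (0.34, adjusted p = 0.0387) or replicate 2 (0.33, adjusted p = 0.0407). This call too depends on the probe set: 1419417_at differed by 0.25 ± 0.08 and passed (adjusted p = 0.0153 over probe sets), 1440739_at by 0.21 ± 0.10 and did not (adjusted p = 0.094), and the mean of all 3 sets passed (0.25, adjusted p = 0.0311).

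The 3 receptor kinases each followed a different pattern over the groups. Flt1 (chr5:147561604-147726438) had intensities of 136 to 194 in NRAS-off tumours (median 171), 250.5 to 372 in MEK inhibitor tumours (median 327) and 1182 to 3218 in vehicle tumours (median 2166). No group overlapped with another. Flt1 fell by 2.67 ± 0.16 in MEK inhibitor tumours, a 6.37-fold lower intensity (limma adjusted p = 4.16e-10), beside the 11.5-fold of the NRAS-off tumours (adjusted p = 2.57e-12), and NRAS-off tumours were lower than MEK inhibitor tumours (−0.85 ± 0.16, adjusted p = 0.000263). Vehicle replicate 6 was lowest of its group (1182) and vehicle replicate 2 highest (3218).

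All 4 Flt1 probe sets fell in both treated groups, but by different amounts. In NRAS-off against vehicle tumours 1419300_at, 1440926_at and 1454037_a_at changed by −2.92 ± 0.13, −3.55 ± 0.16 and −2.01 ± 0.16. In MEK inhibitor against vehicle tumours they changed by −1.38 ± 0.13, −2.70 ± 0.16 and −1.87 ± 0.16. The set 1419300_at had 104 to 146 in NRAS-off tumours (median 125), 323 to 519.9 in MEK inhibitor tumours (median 368) and 739.6 to 1376 in vehicle tumours (median 1034). Its 3 groups formed 3 separate steps. The set 1454037_a_at had 41.2 to 55.9 in NRAS-off tumours, 42.8 to 68.8 in MEK inhibitor tumours and 175 to 423 in vehicle tumours, and the treated groups overlapped (difference −0.15 ± 0.16, 95% confidence interval −0.47 to 0.18). Within each tumour, 1419300_at minus 1451756_at differed by 1.30 between MEK inhibitor and vehicle tumours with no overlap (two-sided exact permutation p = 0.00216, the smallest that 6 against 6 tumours allow, adjusted to 0.00734 over 78 such tests). Of the 6 pairs of Flt1 sets, 5 differed in this way in NRAS-off against vehicle, 4 in MEK inhibitor against vehicle and 5 in NRAS-off against MEK inhibitor tumours. The pair 1440926_at and 1451756_at differed in none (exact permutation p = 0.652, 0.738 and 0.911). Which Flt1 transcripts, such as those of the full receptor or its secreted form, each set reads was not determined, and the added 16 understates changes between low intensities.

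**Figure D2:**
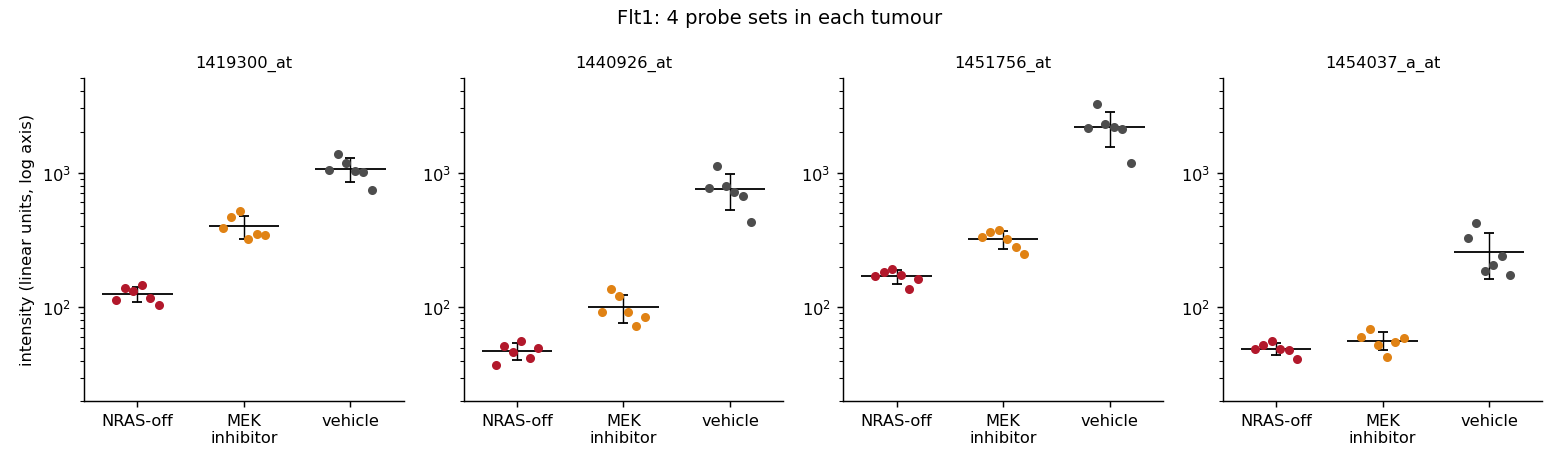
Array intensity (log axis) of the 4 Flt1 probe sets in NRAS-off, MEK inhibitor and vehicle tumours; points are single tumours, lines the mean and SD of 6. In 1419300_at the MEK inhibitor tumours (323 to 519.9) stand between the other groups, whereas in 1454037_a_at they overlap with the NRAS-off tumours (42.8 to 68.8 against 41.2 to 55.9).

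Kdr (chr5:75932827-75979072), the main signalling receptor of Vegfa, went the opposite way to Flt1 in the NRAS-off tumours. Its intensity was 382 to 537 in NRAS-off tumours (median 421), 128 to 235 in MEK inhibitor tumours (median 169) and 147 to 238 in vehicle tumours (median 161). The NRAS-off tumours stood above all others, and the other groups covered nearly the same range. Kdr rose by 1.22 ± 0.12 in NRAS-off against vehicle tumours (2.34-fold, limma adjusted p = 7.02e-08) and was higher than in MEK inhibitor tumours by 1.26 ± 0.12 (adjusted p = 8.56e-08). For MEK inhibitor against vehicle tumours the change was −0.04 (95% confidence interval −0.30 to 0.22, adjusted p = 0.827).

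Flt4 (chr11:49609679-49652739) had 115 to 162 in NRAS-off tumours (median 139), 61.0 to 95 in MEK inhibitor tumours (median 73.2) and 91.4 to 111 in vehicle tumours (median 101). The NRAS-off tumours lay above and all but 1 of the MEK inhibitor tumours lay below the vehicle range. Flt4 rose by 0.39 ± 0.09 in NRAS-off tumours (limma adjusted p = 0.000767), fell by 0.38 ± 0.09 in MEK inhibitor tumours (adjusted p = 0.00159), and differed by 0.77 ± 0.09 between them (adjusted p = 6.9e-07). The other Flt4 set, 1421442_at, had 51.4 to 84.7 in NRAS-off, 55.5 to 86.8 in MEK inhibitor and 54.0 to 70.1 in vehicle tumours and passed in no comparison. Its changes were 0.06, 0.05 and 0.01, and within tumours it differed from the first set in all 3 comparisons (exact permutation, adjusted p = 0.00734, 0.013 and 0.00734). The Flt4 calls therefore rest on 1 of 2 probe sets, and with their mean the fall in MEK inhibitor tumours did not pass (−0.16, adjusted p = 0.0961).

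Of the co-receptors, Nrp1 rose in both treated groups and Nrp2 passed in no comparison. Nrp1 (chr8:128358591-128505476) had 5300.2 to 8877 in NRAS-off tumours (median 7068), 6311 to 7005 in MEK inhibitor tumours (median 6644) and 2711 to 4151 in vehicle tumours (median 3692). All treated tumours lay above all vehicle tumours, and the MEK inhibitor range fell inside the NRAS-off range. The rise was 0.99 ± 0.11 in NRAS-off tumours (limma adjusted p = 4.02e-07) and 0.91 ± 0.11 in MEK inhibitor tumours (adjusted p = 2.48e-06), close to 2-fold in both (1.98 and 1.88). All 4 Nrp1 sets rose in both groups, by 0.99 to 1.48 in NRAS-off and by 0.69 to 0.91 in MEK inhibitor tumours. Between the treated groups the difference was 0.07 (95% confidence interval −0.16 to 0.31), but 1457198_at differed by 0.79 ± 0.10 (adjusted p = 3.74e-06 over probe sets) and 1418084_at by 0.29 ± 0.10 (adjusted p = 0.03). The set 1457198_at had 1165 to 1586 in NRAS-off, 642 to 847 in MEK inhibitor and 364 to 585 in vehicle tumours, without overlap.

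Nrp2 (chr1:62703317-62818692), the co-receptor tied to Flt4 and lymphatic vessels, had 752 to 1012 in NRAS-off tumours (median 892), 624 to 1052 in MEK inhibitor tumours (median 708) and 629 to 964 in vehicle tumours (median 733). The ranges overlapped throughout, and MEK inhibitor replicate 1 was the highest of all 18 tumours on 3 of the 4 sets (1052, 903 and 569). None of the 4 Nrp2 probe sets passed in any comparison. The intervals were −0.07 to 0.45 in NRAS-off against vehicle, −0.32 to 0.20 in MEK inhibitor against vehicle and −0.01 to 0.51 in NRAS-off against MEK inhibitor tumours. Without MEK inhibitor replicate 1 the last difference was 0.35 and passed (limma adjusted p = 0.0114).

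Over the 25 probe sets, 10 rose, 7 fell and 8 did not pass in NRAS-off against vehicle tumours, where 54.7% of all 33777 probe sets were called (28.0% higher, 26.7% lower). In MEK inhibitor against vehicle tumours 7 rose, 9 fell and 9 did not pass (over all sets 40.7% were called, 20.6% higher and 20.1% lower), and in NRAS-off against MEK inhibitor tumours 5 were higher, 6 lower and 14 did not pass (over all sets 40.5% were called, 20.6% higher). Probe sets of the same gene are repeat readings, not separate members. All 4 Flt1 sets, for example, are among the 7 that fell in NRAS-off against vehicle tumours.

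**Figure D3:**
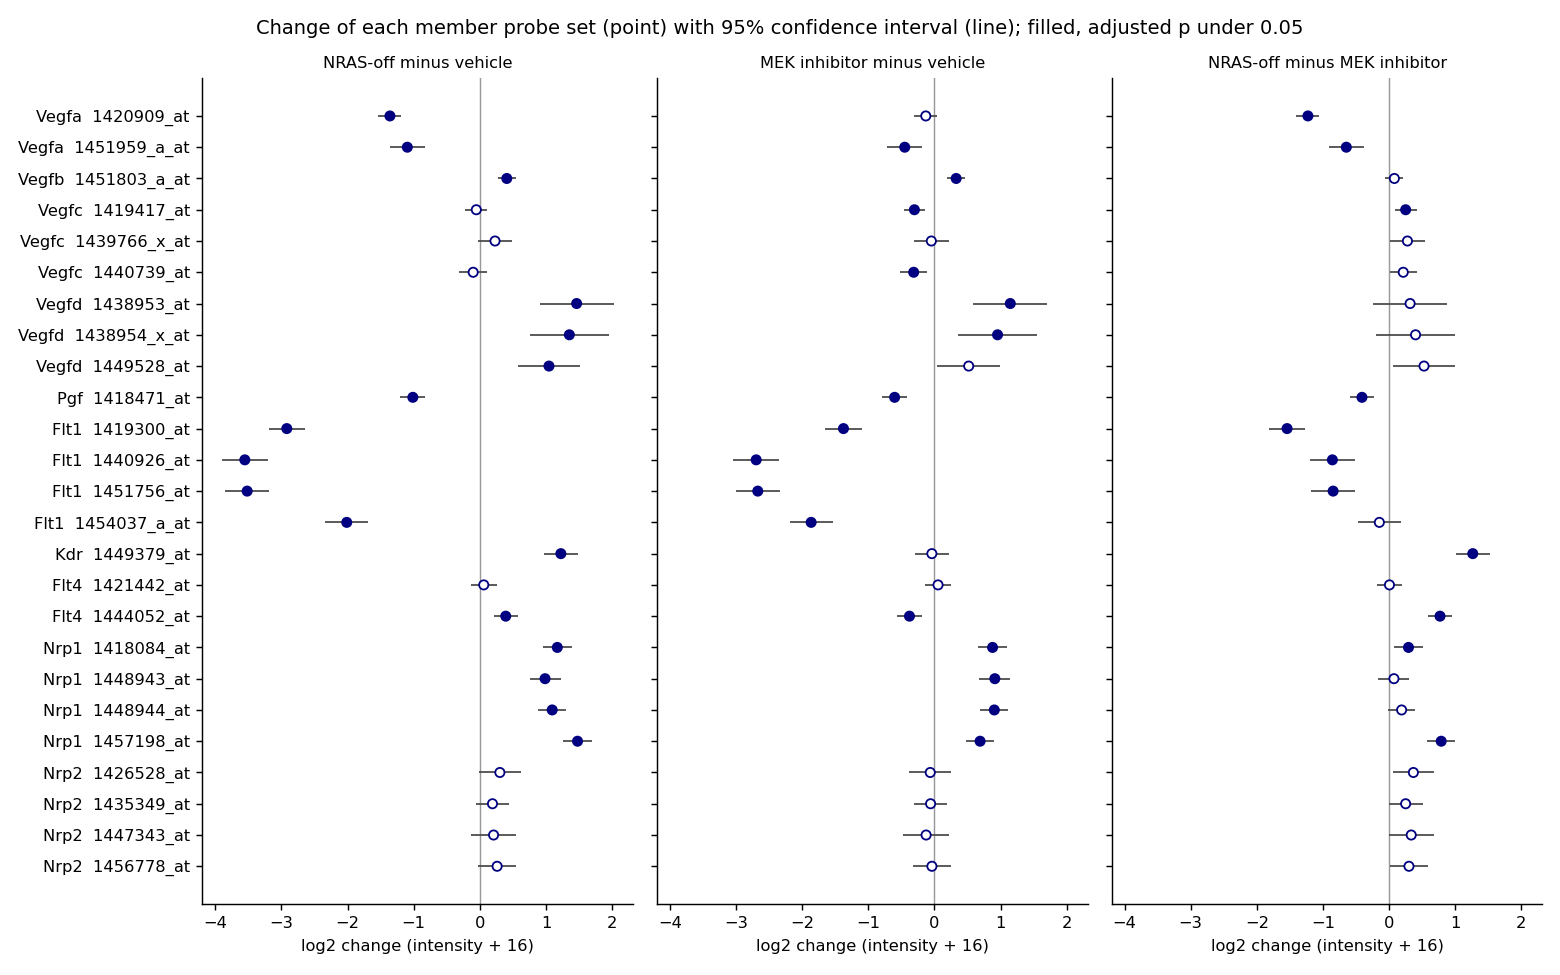
Log2 change with its 95% confidence interval for each of the 25 probe sets for NRAS-off against vehicle (first panel), MEK inhibitor against vehicle (middle panel) and NRAS-off against MEK inhibitor tumours (last panel), on 1 common horizontal scale; filled points have an adjusted p under 0.05. The Flt1 sets stand furthest left in both comparisons with vehicle (−2.01 to −3.55 and −1.38 to −2.70), and Kdr stands right of 0 in the first and last panels only.

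The receptor kinases of this family are best known from endothelial cells, so the endothelial markers of the same tumours are given beside them. Which cells made the receptor transcripts here was not tested. In these bulk samples fewer cells of a type and less RNA per cell cannot be told apart. Leaving out the VEGF receptors, 18 of 20 endothelial markers rose in NRAS-off against vehicle tumours and none fell (median 0.81), among them Vwf, the von Willebrand factor of endothelial granules (1.63 ± 0.15), the surface protein Clec14a (1.52 ± 0.14), the angiopoietin receptor Tek (1.48 ± 0.18) and the tight junction protein Cldn5 (1.18 ± 0.12). In MEK inhibitor against vehicle tumours 4 rose and 3 fell (median 0.08). In NRAS-off against MEK inhibitor tumours 19 were higher and 1 lower (median 0.81). Over all genes 59.3%, 45.2% and 47.0% were called in these comparisons, in the order given, beside 90.0%, 35.0% and 100.0% of these markers. Their summed intensity was 5263 to 7266 in NRAS-off, 3177 to 4474 in MEK inhibitor and 2877 to 4487 in vehicle tumours, and none of the markers was at 0. Kdr was highest in the same group as these markers, and Flt1 was lowest there. The endothelial marker mean, as a log2 difference from all 18 tumours, was 0.34 to 0.81 in NRAS-off, −0.46 to 0.00 in MEK inhibitor and −0.52 to 0.09 in vehicle tumours. The MEK inhibitor tumour with the highest marker mean (replicate 4) also had the most Kdr of its group (235), as did the vehicle tumour with the highest (replicate 6, Kdr 238 and the lowest Flt1 of its group). In the NRAS-off group the highest marker mean (0.81) was in replicate 4, whose Kdr was 408, while the most Kdr (537) was in replicate 1.

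With the endothelial mean as a covariate, Kdr changed by 0.39 (limma adjusted p = 0.108) in NRAS-off against vehicle tumours and by 0.47 (adjusted p = 0.062) against MEK inhibitor tumours, no longer passing. In the same fit the Vegfd change in NRAS-off against vehicle tumours turned to −0.21 (adjusted p = 0.756), and Flt4 kept its size there but did not pass (0.39, adjusted p = 0.18). Between NRAS-off and MEK inhibitor tumours Flt1 differed by −0.25 (adjusted p = 0.666) and Pgf by −0.53 (adjusted p = 0.0785), and neither passed. That covariate lay 85.1% between the NRAS-off and vehicle groups and raised the median SE 2.26 times, so the fit can separate the parts only weakly.

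**Figure D4:**
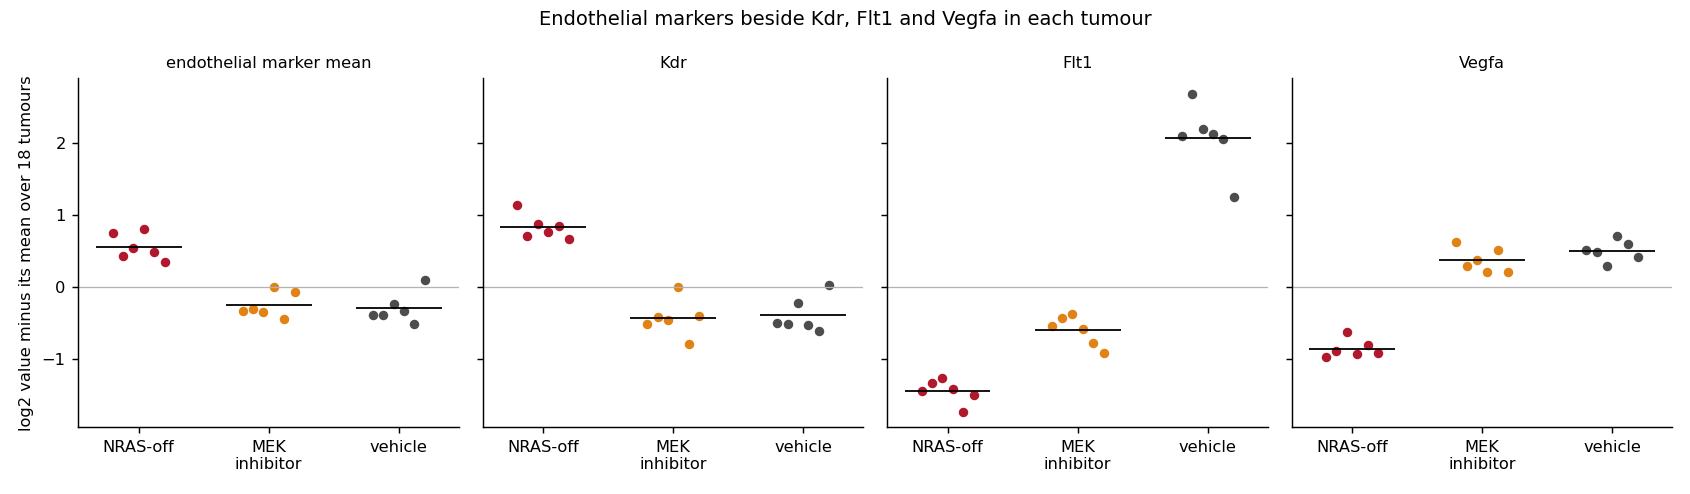
Mean of 20 endothelial markers, Kdr, Flt1 and Vegfa in each tumour of the NRAS-off, MEK inhibitor and vehicle groups, as log2 values minus their mean over all 18 tumours; horizontal lines are group means. The NRAS-off tumours are highest for the marker mean (0.34 to 0.81) and Kdr and lowest for Flt1 and Vegfa.

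Other cell type markers moved as well, and their part in the VEGF results was not tested beyond the covariate fits. Over all genes 31.8% rose and 27.5% fell in NRAS-off against vehicle tumours. In MEK inhibitor against vehicle tumours 24.3% of all genes rose and 20.9% fell. Macrophage markers had summed intensities of 44406 to 62481 in NRAS-off, 8853 to 20109 in MEK inhibitor and 18027 to 29415 in vehicle tumours, with 11 of 12 rising in NRAS-off and 9 of 12 falling in MEK inhibitor tumours. The 9 fibroblast markers measured summed to 177868 to 207928, 119328 to 126042 and 77767 to 95165 in the same order of groups, with 7 rising and 2 falling in NRAS-off and 6 rising and 1 falling in MEK inhibitor tumours. Of the pericyte and smooth muscle markers 6 of 10 rose and 1, Cspg4, a proteoglycan that melanoma cells also carry, fell by 3.32 ± 0.10 in NRAS-off tumours. Among the lymphatic markers that passed the filter, Reln and Lyve1 fell by 3.24 ± 0.16 and 1.54 ± 0.32 and Pdpn and Mmrn1 rose by 1.06 ± 0.14 and 0.78 ± 0.16 in NRAS-off tumours; the defining lymphatic factor Prox1 was below the filter. In MEK inhibitor tumours 2 of these 4 fell (Lyve1 by 2.06 ± 0.32, Reln by 1.02 ± 0.16) and none rose. Which cells made these 4 transcripts was not tested, so their changes are not a measure of lymphatic vessels. All 7 skeletal muscle markers rose in both treated groups, and of 4 adipocyte markers 2 rose in NRAS-off tumours. No keratinocyte marker passed, but NRAS-off replicate 2 had a keratinocyte sum of 28119 against 472 to 714 in vehicle tumours. Without that tumour the family's counts were 8, 5 and 7 called, against 8, 5 and 5 with it. Over all genes the counts were 8733, 6835 and 6952 without that tumour, against 8899, 6787 and 7052 with it. Melanocytic markers rose in 4 and fell in 1 of 6 in NRAS-off tumours and rose in 2 of 6 in MEK inhibitor tumours.

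Transcripts of proteins that carry VEGF receptor signals inside the cell changed in both directions. Of 41 receptor signalling and trafficking partners tested, 20 rose and 12 fell in NRAS-off against vehicle tumours (median 0.13 against 0.00 for all genes), 11 rose and 8 fell in MEK inhibitor against vehicle tumours (0.07 against 0.01), and 13 were higher and 11 lower in NRAS-off against MEK inhibitor tumours (−0.01 against −0.01). Gab1, a docking adapter, had the largest change in both comparisons with vehicle: 3025 ± 219.7 in NRAS-off and 4527 ± 418 in MEK inhibitor tumours against 1049.5 ± 157 in vehicle tumours (SD, n = 6 each), rises of 1.52 ± 0.09 and 2.10 ± 0.09. The kinase gene Prkca rose by 0.93 ± 0.06 and 1.11 ± 0.06 in the same comparisons. Cav1, the caveolae protein, fell by 1.15 ± 0.09 and Ptprb, a receptor phosphatase gene that is also on the endothelial list, rose by 0.90 ± 0.10 in NRAS-off tumours. The share called was 78.0% in NRAS-off and 46.3% in MEK inhibitor against vehicle tumours, where 59.3% and 45.2% of all genes were called. Between the treated groups it was 58.5%, beside 47.0% of all genes. Dab2, an endocytic adapter, and the kinase gene Prkcd fell by 1.03 ± 0.12 and 0.53 ± 0.09 in MEK inhibitor tumours and were higher in NRAS-off than in MEK inhibitor tumours by 1.45 ± 0.12 and 1.09 ± 0.09.

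Class 3 semaphorins compete for the neuropilins and signal through some of the plexins. The list holds plexins of the A, B, C and D groups, whether or not they serve class 3 semaphorins. Of the 16 semaphorin and plexin genes 8 rose and 2 fell in NRAS-off tumours (median 0.17), 9 rose and 3 fell in MEK inhibitor tumours (median 0.41), and 4 were higher and 4 lower in NRAS-off against MEK inhibitor tumours (median 0.03). The called share of 62.5% in NRAS-off tumours lay near the 59.3% of all genes, and that in MEK inhibitor tumours was 75.0% against 45.2% of all genes. Between the treated groups it was 50.0%, near the 47.0% of all genes. Sema3d had 724 ± 139.5 in NRAS-off and 446 ± 109.9 in MEK inhibitor tumours against 138 ± 47.8 in vehicle tumours (SD, n = 6 each), rises of 2.31 ± 0.20 and 1.61 ± 0.20. Sema3c, another neuropilin ligand, rose by 0.67 ± 0.15 and 0.99 ± 0.15. Sema3e rose by 1.08 ± 0.15 in MEK inhibitor tumours and was lower in NRAS-off than in MEK inhibitor tumours (−0.96 ± 0.15). The plexin gene Plxnc1 rose by 2.24 ± 0.15 in NRAS-off tumours, and Plxna2 fell by 0.87 ± 0.10 in MEK inhibitor tumours.

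Proteases free VEGF from matrix or trim its precursors. The 14 genes listed for these steps include a cofactor, Ccbe1, beside the proteases. Of these 14 genes 6 rose and 3 fell in NRAS-off tumours (median 0.09), 1 rose and 3 fell in MEK inhibitor tumours (median −0.15), and 6 were higher and 3 lower in NRAS-off against MEK inhibitor tumours (median 0.27). The called share was 64.3% in NRAS-off tumours, near the 59.3% of all genes, and 28.6% in MEK inhibitor tumours, against 45.2% of all genes. Between the treated groups it was 64.3%, against 47.0% of all genes. Plau, the urokinase that makes plasmin, had 1675 ± 437 in NRAS-off and 285 ± 17.4 in MEK inhibitor tumours, against 372 ± 69.0 in vehicle tumours (SD, n = 6 each), a rise of 2.10 ± 0.14 in NRAS-off tumours. Mmp9, a gelatinase known to release Vegfa, fell by 1.80 ± 0.43 in NRAS-off and by 1.95 ± 0.43 in MEK inhibitor tumours. Pcsk5, a proprotein convertase, rose by 1.05 ± 0.21 in NRAS-off tumours. Ccbe1, a cofactor of Vegfc processing that is also counted among the other angiogenic genes below, was higher in NRAS-off than in MEK inhibitor tumours by 0.98 ± 0.21.

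Of 25 other angiogenic ligands and inhibitors 12 rose and 6 fell in NRAS-off tumours (median 0.24), 6 rose and 5 fell in MEK inhibitor tumours (median 0.06), and 9 were higher and 4 lower in NRAS-off against MEK inhibitor tumours (median 0.17). Of this list 72.0% were called in NRAS-off and 44.0% in MEK inhibitor tumours, beside 59.3% and 45.2% of all genes. Between the treated groups 52.0% were called, near the 47.0% of all genes. Angpt2, a Tek ligand stored by endothelial cells, had 1175 ± 70.7 in NRAS-off and 991 ± 398 in MEK inhibitor tumours against 409.7 ± 136 in vehicle tumours (SD, n = 6 each), rises of 1.55 ± 0.26 and 1.19 ± 0.26. Pdgfa, a ligand of PDGF receptors, fell by 1.80 ± 0.10, and the chemokine genes Cxcl10 and Cxcl12 rose by 1.64 ± 0.42 and 1.43 ± 0.18 in NRAS-off tumours. The Notch ligand gene Jag1 fell by 1.46 ± 0.11 and the vasodilator peptide gene Adm rose by 0.97 ± 0.17 in MEK inhibitor tumours.

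Genes of oxygen sensing were set beside Vegfa because the hypoxia-inducible factors are its known regulators. Of 22 tested, 8 rose and 8 fell in NRAS-off tumours (median −0.13), 7 rose and 1 fell in MEK inhibitor tumours (median 0.14), and 4 were higher and 12 lower in NRAS-off against MEK inhibitor tumours (median −0.42). Of these genes 72.7% were called in NRAS-off and 36.4% in MEK inhibitor tumours, beside 59.3% and 45.2% of all genes, and 72.7% between the treated groups, beside 47.0%. The glucose transporter gene Slc2a1 and the glycolytic genes Pgk1 and Ldha fell by 1.38 ± 0.18, 1.14 ± 0.08 and 1.07 ± 0.10 in NRAS-off tumours. Ndrg1, Pdk1 and Bnip3, known hypoxia-induced genes, rose by 1.09 ± 0.11, 0.86 ± 0.20 and 0.70 ± 0.23 in MEK inhibitor tumours, where Vegfa did not pass on 1 of its probe sets and fell on the other. Ndrg1 also rose by 0.99 ± 0.11 in NRAS-off tumours, whereas Bnip3 fell by 0.75 ± 0.23.

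For each member the 3 of 15005 genes with the most similar profile over the 18 tumours were found by the root mean square difference of log2 values centred on each gene's mean. Flt1 was nearest to Mmp1a and Phlda2 (both 0.32) and Osbpl6 (0.35), for an SD of Flt1 itself of 1.57. These genes fell by 3.42, 3.46 and 3.43 in NRAS-off tumours and by 3.01, 2.88 and 2.24 in MEK inhibitor tumours. Kdr was nearest to Cldn5 (0.17), Lyl1 (0.18) and Mmrn2 (0.19), of which Cldn5 and Mmrn2 stand on the endothelial list. Vegfa was nearest to Cav2 (0.16), Itga6 and Pgk1 (both 0.18), and Pgf to Septin9 (0.11), Cct7 and Rhbdd1 (both 0.13). Nrp1 was nearest to Marcks (0.14), Ttc28 (0.15) and Pnrc2 (0.16), Vegfd to Tnxb (0.21), Fam13c (0.27) and Selenbp1 (0.28), and Flt4 to Slc18a2 (0.16), Slc66a2 (0.17) and Tmem88 (0.18). Vegfb was nearest to Rcor3 and Zfp445 (both 0.09) and 1700094D03Rik (0.10), Vegfc to Syngr2 (0.13), Smap2 (0.14) and Mospd2 (0.15), and Nrp2 to Tcirg1, Rpusd2 and Vps18 (all 0.16), against SDs of these members of 0.21, 0.25 and 0.24. A small distance for a member with a small spread is weak evidence of likeness, and all profiles share the same 3 groups of tumours.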

How the data were processed

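RNA of 18 tumours was read on one-colour Affymetrix arrays, and the table holds 1 intensity per probe set and tumour. The intensities are linear values as deposited by the authors; per the submitters' processing notes both MAS5 and RMA were used, with no version, and which of them made the deposited values is not given in the sources used here. No further scaling was applied. Groups and replicate numbers came from the titles, each a separate tumour.

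Values were analysed as log2(intensity + 16). Per gene the probe set with the highest mean was used, and genes under the 25th percentile of probe set means (intensity 23.5) were left out, leaving 15005 of 18193 genes. Of the 45037 probe sets, 34945 have 1 gene symbol, 932 several and 9160 none. One limma 3.58.1 model (R 4.3.3) was fitted to the 3 groups, with Benjamini-Hochberg adjustment over all genes tested. A second fit covered 33777 probe sets. Probe sets of a gene were compared within tumours by exact permutation. Tests on simulated data covered NRAS-off minus vehicle only (15005 genes). They recovered 88.1% of 67 genes changed 1.5-fold and 98.5% of 67 changed 2-fold, with 11 false calls. Far fewer genes were changed there than were called in the tumours, so recovery in the tumours can differ. Replicate numbers were not treated as pairs. With group means removed, 8 of 18 same-number pairs of tumours from different groups correlated above 0.1. Their median correlation was 0.07, against −0.01 for pairs with different numbers. Whether tumours of the same number share a batch was not tested.

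All 10 members are named, with up to 4 called genes of largest change per list and comparison and the 3 most similar genes per member. The members and the lists were chosen with earlier results of these data known. Alternatives covered filter, probe set choice, scaling, pseudocount, prior, array weights, samples fitted, pairing, threshold, marker covariates and each tumour left out. Promoter windows came from the RefSeq table (GRCm38.p6), and figures were drawn with matplotlib 3.10.9.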

Additional observations from a re-analysis of the deposited data

Results flagged for a closer look

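Of the 30 groups of 6 tumours examined (10 genes in 3 groups), 2 held a tumour far from the rest, where chance gives about 1 in 20. Vegfb in NRAS-off replicate 2 had an intensity of 256, below the 291 to 311 of the other NRAS-off tumours. Vegfc in MEK inhibitor replicate 4 had an intensity of 89.3, below the 117 to 129 of the other MEK inhibitor tumours. Without NRAS-off replicate 2 the family's calls against vehicle numbered 8, as with it, and those of all genes 8733, against 8899 with it.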

How the results depend on the processing

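Counts below are genes called for NRAS-off against vehicle, then MEK inhibitor against vehicle, then NRAS-off against MEK inhibitor tumours. With a change of at least 2-fold required, 5, 1 and 2 of the 10 VEGF genes passed and 1575, 592 and 1086 of all genes; the lists passed 2, 3 and 2 (receptor partners), 2, 2 and 1 (semaphorins and plexins), 8, 2 and 4 (other angiogenic), 5, 1 and 2 (ligand processing) and 4, 1 and 6 (oxygen sensing). With the endothelial mean as a covariate, 5 VEGF genes passed in NRAS-off minus vehicle and 2 in NRAS-off minus MEK inhibitor, 3682 and 2183 of all genes, and 14 and 15, 3 and 3, 7 and 3, 4 and 2, and 5 and 1 of the lists in the same order; the Vegfd change against vehicle in NRAS-off tumours turned to −0.21. With macrophage and fibroblast means as covariates, 0, 1 and 0 VEGF genes passed and 71, 390 and 81 of all genes, with 0, 2 and 0, 0, 2 and 0, 1, 0 and 1, 0, 0 and 0, and 0, 2 and 0 of the lists. In that fit the NRAS-off changes against vehicle turned to −1.31 for Vegfd, −0.67 for Kdr and −0.62 for Nrp1, and the Flt1 difference between NRAS-off and MEK inhibitor tumours to 1.20, none of them passing. These scores lay 89.9% (macrophage) and 97.7% (fibroblast) between the NRAS-off and vehicle groups and raised the median SE 6.19 times in that comparison, so that fit cannot separate them from the treatment. Between MEK inhibitor and vehicle they lay 56.7% and 89.1% and raised it 3.43 times. Between NRAS-off and MEK inhibitor they raised it 3.97 times. There too the fit separates the parts poorly. The VEGF gene that passed in MEK inhibitor against vehicle tumours was Flt1. Array weights gave 8 calls in NRAS-off minus MEK inhibitor. At an adjusted p under 0.01, 2 ligand processing and 5 oxygen sensing genes passed in MEK inhibitor tumours. With a replicate block 8, 5 and 5 VEGF genes passed and 8728, 6719 and 6932 of all genes, and no call of a VEGF gene changed. Leaving out each tumour in turn gave 8 to 8, 5 to 6 and 5 to 7 VEGF genes, and no called VEGF gene lost its call. Over all genes these fits called 8486 to 9014, 6376 to 6835 and 6608 to 7082. Vegfd in NRAS-off minus MEK inhibitor passed without NRAS-off replicate 2, 3 or 6 (0.64, 0.63 and 0.61). Nrp1 in the same comparison passed with the mean of its probe sets (0.34) or the most variable one (0.79). No VEGF gene that passed turned its direction under median centring or quantile normalization. Array number and the unstated processing limit the precision.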
